A study of Mus musculus with 8 samples.

Results

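The genes described here encode lysosomal hydrolases, the activator proteins some of them need, and proteins of the lysosomal membrane. They were 36 genes taken from a list of symbols. Array probes were assigned to them through the RefSeq transcript accession in the files, and 54 probes named 35 of the 36 genes, out of 15203 genes tested. The exception was Cd68, which encodes a heavily glycosylated macrophage membrane protein and has no value here. All 35 passed the filter on dim probes. They comprised 11 glycosidases, 5 sulfatases, 6 lipid enzymes and activators, 3 peptidases and amidases, 9 membrane proteins and progranulin. RNA came from RAW 264.7, a macrophage-like mouse line of BALB/c origin, cultured without antibiotic. Cells had been exposed for 6 hours to *Bacillus clausii*, *Bifidobacterium bifidum* or *Lactobacillus acidophilus* at a multiplicity of infection of 1, and the controls were untreated cells of the same line and time. Each array carried RNA of treated cells in Cy5 and of untreated cells in Cy3, and every value below is a log2 ratio of treated over untreated unless another scale is named. There were 3 arrays for *B. clausii*, 3 for *B. bifidum* and 2 for *L. acidophilus*.

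Lysosomes are the acidic compartment in which macrophages break down engulfed bacteria, membranes and worn-out cell parts. Glycosidases and sulfatases strip sugars and sulfate groups from glycoproteins, glycolipids and glycosaminoglycans, lipid enzymes act on sphingolipids with the help of saposins, and membrane proteins form the coat and the channels and exporters of the limiting membrane. Some of these genes share an E-box motif in their promoters that is bound by TFEB, TFE3 and MITF. These are basic helix-loop-helix factors whose entry into the nucleus is controlled by mTORC1 at the lysosomal surface. Loss of single members causes lysosomal storage diseases in humans.

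The motif is shown here because some of the members share it in their DNA. RefSeq windows from 250 bases before to 50 bases after the transcription start (assembly GRCm38.p6) were found for 33 of the 36 genes. The letters CACGTG, which read the same on both strands, lay in the window of 10 of 33 members (30.3%), against 8.09% of 27025 genes with a window. The longer TCACGTGA lay in 3 members (9.1%, against 1.12% of all genes), namely Gla, Mcoln1 and Cln3, and the same letters with G before and C after them in 1 (Cln3, 3.0%, against 0.37%). Each longer form contains the shorter one. The 3 members with the longer motif are printed below together with Lamp1, which had 4 copies of the short one, written in the direction of transcription with the motifs in capitals.
Gla, chrX:134600956-134601255, minus strand: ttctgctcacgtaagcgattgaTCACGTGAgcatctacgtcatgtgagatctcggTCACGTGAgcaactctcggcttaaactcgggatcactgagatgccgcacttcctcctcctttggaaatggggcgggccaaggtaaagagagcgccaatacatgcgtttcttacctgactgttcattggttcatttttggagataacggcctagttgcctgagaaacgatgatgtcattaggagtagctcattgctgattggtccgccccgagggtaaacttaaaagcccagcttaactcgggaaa
Mcoln1, chr8:3500269-3500568, plus strand: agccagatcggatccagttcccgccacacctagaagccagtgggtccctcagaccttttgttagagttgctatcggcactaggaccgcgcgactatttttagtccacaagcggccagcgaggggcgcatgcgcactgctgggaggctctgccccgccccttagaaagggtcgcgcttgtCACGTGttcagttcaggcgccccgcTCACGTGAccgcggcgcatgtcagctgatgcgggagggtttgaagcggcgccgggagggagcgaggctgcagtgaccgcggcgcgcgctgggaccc
Cln3, chr7:126583187-126583486, minus strand: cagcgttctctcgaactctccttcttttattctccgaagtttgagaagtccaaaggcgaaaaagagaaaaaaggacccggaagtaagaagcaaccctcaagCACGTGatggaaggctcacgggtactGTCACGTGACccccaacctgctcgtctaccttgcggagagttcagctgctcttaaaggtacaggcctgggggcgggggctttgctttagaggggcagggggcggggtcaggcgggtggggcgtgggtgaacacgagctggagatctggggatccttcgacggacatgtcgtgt
Lamp1, chr8:13158911-13159210, plus strand: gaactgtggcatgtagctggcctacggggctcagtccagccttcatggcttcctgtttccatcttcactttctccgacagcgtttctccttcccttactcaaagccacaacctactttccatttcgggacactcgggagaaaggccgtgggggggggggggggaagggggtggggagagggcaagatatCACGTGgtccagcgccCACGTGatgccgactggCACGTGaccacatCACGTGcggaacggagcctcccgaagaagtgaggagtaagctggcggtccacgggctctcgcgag
A match is a description of these letters and not a measured binding site. The other members with CACGTG were Arsa, Gaa, Glb1, Lgmn, Naglu and Sgsh. A gene was counted if any of its windows held the letters, and Cln3 and Lgmn each also had a window with 0 copies.

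The arrays lay on 2 slides, and the slide has to be named with each value. For *B. clausii* and *B. bifidum*, replicates 1 and 2 were on slide 2 and replicate 3 on slide 1, which also carried both *L. acidophilus* arrays. Log2 ratios of 4799 bright genes correlated between slides at r = −0.02 to 0.04 for arrays of the same strain, which describes genes and not replicates. *B. clausii* replicates 1 and 2 differed by less than the sampling noise of repeated spots (ratio 0.961 over 245 probes with 10 spots, against 1.38 or more for every other pair of arrays), so their mean was counted as 1 sample. *B. clausii* replicate 3 had 12543 probes above background, against 21508 to 26473 on the other arrays, and its repeated spots spread by 67.4% in Cy3 and 72.5% in Cy5. No member spot was saturated on any array. Dyes were never swapped, so a probe's unequal uptake of the dyes was not corrected in ratios against untreated cells. The labels do not tie an array to its own culture, so p-values measure how far these arrays spread, possibly for technical reasons, and the number of arrays limits every value. Of 8 macrophage marker genes, 7 were well above background on every array and Mrc1 on none. None of 5 dendritic cell, fibroblast or epithelial markers each was above background on every array, against 1 of 4 neutrophil markers with a probe, 1 of 5 lymphocyte and 4 of 6 osteoclast markers.

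With *B. clausii*, most lysosomal genes had lower ratios on slide 2 and ratios near 0 on slide 1. The median of the 35 members was −0.44 and −0.48 on *B. clausii* replicates 1 and 2, and −0.05 on replicate 3. The *B. bifidum* medians were −0.08 and −0.04 on slide 2 and −0.05 on slide 1, and those of *L. acidophilus* −0.06 and −0.06. The median of all genes lay between −0.02 and 0.01 on every array. On the *B. clausii* arrays, 31 and 31 of 35 members were below 0 on slide 2 and 18 of 35 on slide 1. Of all genes, 52.3% and 51.3% were below 0 on these slide 2 arrays and 49.1% on the slide 1 array.

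**Figure D1:**
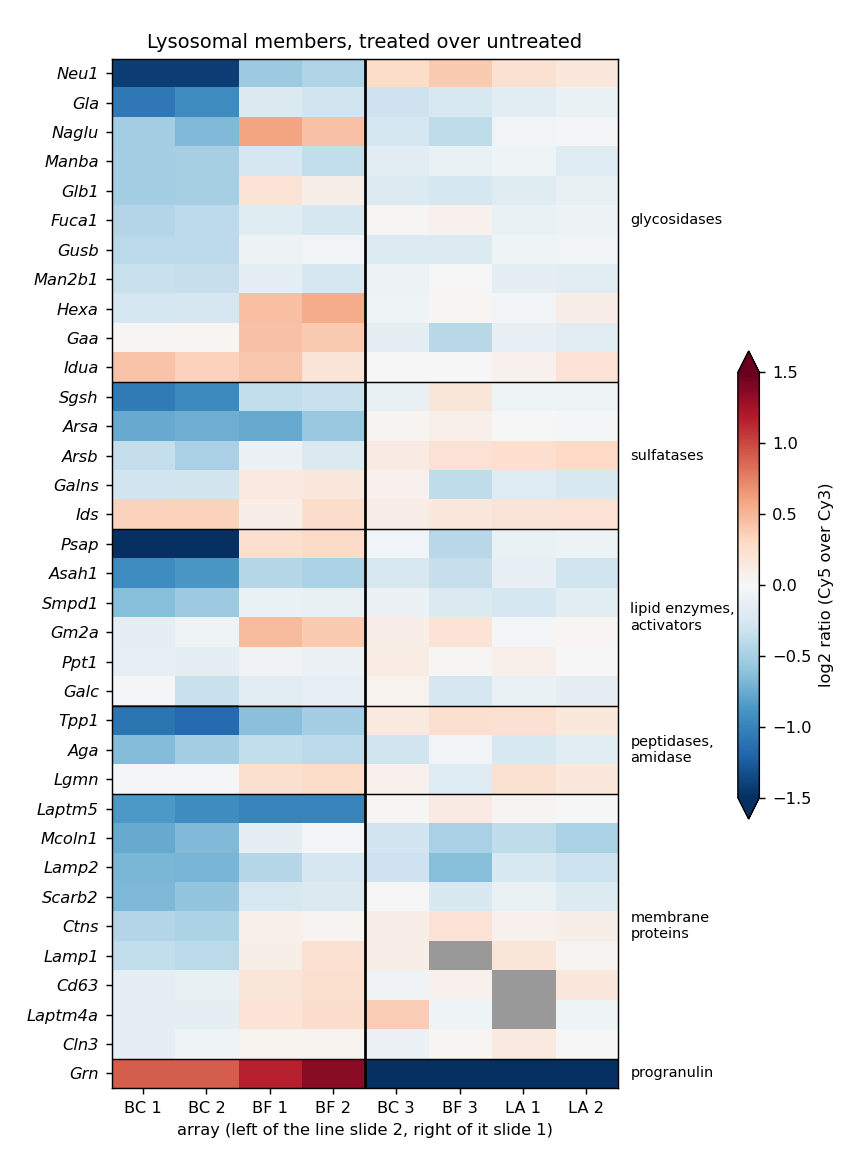
Log2 ratio of treated over untreated for the 35 measured members (rows, grouped by role) on the 8 arrays (columns; BC, *B. clausii*; BF, *B. bifidum*; LA, *L. acidophilus*; the number is the replicate). Slide 2 is left of the vertical line and slide 1 right of it, and grey cells have no value. Most rows are blue on the 2 *B. clausii* arrays of slide 2, and the colours do not carry over to slide 1. On each of these 2 arrays 31 of 35 members were below 0, against 52.3% and 51.3% of all genes.

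Over both slides, limma called 0 of 35 members at an adjusted p under 0.05 with *B. clausii*, 0 with *B. bifidum*, 0 with *L. acidophilus* and 0 between *B. clausii* and *B. bifidum* (Benjamini-Hochberg over all genes). At an unadjusted p under 0.05 the counts were 12, 8, 1 and 3 of 35, against 1864, 2699, 942 and 854 of all 15203 genes. Of all genes, the percentage called was 0 for *B. clausii*, 0.401% for *B. bifidum*, 0 for *L. acidophilus* and 0 between strains. Counting the *B. clausii* arrays of slide 2 as separate samples called 7 members, all lower (Aga, Asah1, Gla, Gusb, Lamp2, Manba and Mcoln1), against 2.59% of all genes lower and 4.74% in either direction. That count called 0 members with *B. bifidum* (1.72% of all genes), 0 with *L. acidophilus* and 0 between strains (0.0263%), and 14 for the slide (25.9%). With the slide as a term in the fit, 9 members fell with *B. clausii* (4.97% of all genes fell and 2.8% rose), and 5 fell and 1 rose with *B. bifidum* (7.49% fell and 2.82% rose). The 9 were Aga, Arsa, Asah1, Gla, Laptm5, Manba, Neu1, Sgsh and Tpp1. On slide 1 alone, where the spread comes from the *L. acidophilus* pair and each other strain is 1 array assumed to vary like it, Grn was the one member that passed. It fell with *B. clausii* (−1.88, adjusted p = 0.0275, against 0.0534% of all genes) and with *B. bifidum* (−2.32, adjusted p = 0.0332, against 0.0467%) in limma.

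On slide 2 alone, 24 members fell with *B. clausii*, 3 rose and 8 did not pass, against 24.4% of all genes that fell and 19.1% that rose. The median of the members was −0.42, against −0.01 for all genes. With *B. bifidum*, 13 members fell and 11 rose, against 24.7% and 16.7% of all genes, so the members' share that fell was 37.1%. With *B. clausii* that share was 68.6%. In these fits the spread comes from the pair of *B. bifidum* arrays alone, with *B. clausii* as 1 sample, so the adjusted p-values rest on little. From the scanner's own processed signals or the deposited ratios the medians on slide 2 were −0.44 and −0.44 for *B. clausii*. Yet 0 genes of 15181 passed there in either direction. With median centring in place of loess, 10 members fell with *B. clausii* and 19 with *B. bifidum* on slide 2 and 0 rose, against 4.01% and 30.6% of all genes that fell. The medians of all genes there were −0.30 and −0.42, and none of the rises with *B. bifidum* passed under that setting. The terms rose and fell in the paragraphs on single roles refer to the slide 2 fit with loess, and values on the slide 1 array follow each.

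Among the glycosidases, 9 of 11 fell and 1 rose with *B. clausii* on slide 2. Neu1, the sialidase that removes terminal sialic acids, fell furthest, with −1.41 and −1.41 on slide 2 (−1.41 ± 0.082 SE, adjusted p = 1.33e-05) and 0.27 on slide 1. With *B. bifidum* it had −0.54 and −0.45 on slide 2 and 0.40 on slide 1, and with *L. acidophilus* 0.23 and 0.16. By this probe, the brighter of 2, all slide 2 arrays were below 0 and all slide 1 arrays above it, which the other probe did not share. Gla, alpha-galactosidase A, which clears globotriaosylceramide, had −1.08 and −0.95 with *B. clausii* on slide 2 (−1.01 ± 0.082 SE, adjusted p = 4.29e-05) and −0.31 on slide 1. Its *B. bifidum* arrays had −0.22, −0.30 and −0.24, and its *L. acidophilus* arrays −0.15 and −0.09. Gla was thus below 0 on all 8 arrays, and lowest on the 2 arrays of *B. clausii* on slide 2.

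Naglu, which trims heparan sulfate, moved in opposite directions with the 2 strains on slide 2 and was below 0 with both on slide 1. It had −0.53 and −0.67 with *B. clausii* on slide 2 and −0.27 on slide 1, and 0.59 and 0.44 with *B. bifidum* on slide 2 and −0.39 on slide 1. Its *L. acidophilus* ratios were −0.04 and −0.03. Hexa, the alpha subunit of beta-hexosaminidase, which degrades GM2 ganglioside, had −0.26 and −0.25 with *B. clausii* on slide 2 and −0.07 on slide 1, against 0.45, 0.55 and 0.03 with *B. bifidum*. For Hexa, Cd63 and Cln3 all *B. clausii* arrays lay below 0 and all *B. bifidum* arrays above it, 3 of 34 members with all these values (8.82%), against 2.91% of all genes split in either direction. Glb1, beta-galactosidase, had −0.51, −0.50 and −0.20 with *B. clausii* and 0.21, 0.08 and −0.26 with *B. bifidum*, the last of each being the slide 1 array.

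The remaining glycosidases moved less. Manba, the beta-mannosidase, had −0.51, −0.49 and −0.16 with *B. clausii* and −0.25, −0.37 and −0.10 with *B. bifidum*, and it fell with both strains on slide 2 (adjusted p = 0.00156 and 0.0031). Man2b1, the alpha-mannosidase, fell by 0.34 with *B. clausii* and by 0.19 with *B. bifidum* on slide 2, and had −0.08 and −0.0029 on slide 1. Fuca1, the alpha-fucosidase, had −0.44 and −0.39 on slide 2 and 0.02 on slide 1 with *B. clausii*, and −0.18, −0.25 and 0.06 with *B. bifidum*. Its slide 2 arrays of both strains were all lower than its slide 1 arrays. Gusb, the beta-glucuronidase often used as a reference gene, had −0.40, −0.39 and −0.20 with *B. clausii*, and with *B. bifidum* −0.08, −0.04 and −0.20, which did not pass. Gaa, which degrades glycogen, rose with *B. bifidum* on slide 2, with 0.44 and 0.39 there and −0.42 on slide 1, and did not pass with *B. clausii* (0.01, 0.03 and −0.13). Idua, the alpha-iduronidase of dermatan and heparan sulfate breakdown, was the one glycosidase that rose with *B. clausii* on slide 2, at 0.43 and 0.35, against 0.0036 on slide 1. It rose with *B. bifidum* too (0.40 and 0.19 on slide 2, −0.01 on slide 1).

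Of the 5 sulfatases, 4 fell and 1 rose with *B. clausii* on slide 2. Sgsh, the heparan N-sulfatase, had −1.05 and −0.96 on slide 2 (−1.003 ± 0.080 SE, adjusted p = 3.92e-05) and −0.12 on slide 1. With *B. bifidum* it had −0.37 and −0.33 on slide 2 and 0.18 on slide 1, and with *L. acidophilus* −0.06 and −0.06. Arsa, which removes sulfate from the myelin lipid sulfatide, fell with both strains on slide 2, at −0.75 and −0.74 with *B. clausii* and −0.76 and −0.57 with *B. bifidum*. On slide 1 Arsa had 0.04 with *B. clausii*, 0.08 with *B. bifidum* and 0.01 and −0.03 with *L. acidophilus*, so no slide 1 array reached the slide 2 values. Arsb, which acts on dermatan and chondroitin sulfate, had −0.36 and −0.48 on slide 2 and 0.12 on slide 1 with *B. clausii*. It had −0.08, −0.22 and 0.22 with *B. bifidum* and 0.25 and 0.30 with *L. acidophilus*. Galns, the galactosamine-6-sulfatase of keratan sulfate breakdown, had −0.29, −0.27 and 0.07 with *B. clausii* and 0.14, 0.15 and −0.38 with *B. bifidum*. Ids, the iduronate-2-sulfatase, was above 0 on all 8 arrays, at 0.35, 0.34 and 0.10 with *B. clausii*, 0.10, 0.27 and 0.16 with *B. bifidum*, and 0.19 and 0.22 with *L. acidophilus*.

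Among the lipid enzymes and activators, 3 of 6 fell with *B. clausii* on slide 2. Psap, the precursor of the saposins that present sphingolipids to their hydrolases, had the lowest ratios of all members with *B. clausii* on slide 2, −1.64 and −1.55 (−1.59 ± 0.080 SE, a fold of 0.331, adjusted p = 8.28e-06). On slide 1 it had −0.05 with *B. clausii*. With *B. bifidum* it had 0.25 and 0.29 on slide 2 and −0.42 on slide 1, and with *L. acidophilus* −0.10 and −0.07. Asah1, acid ceramidase, had −0.94 and −0.88 on slide 2 and −0.25 on slide 1 with *B. clausii*, −0.43, −0.48 and −0.35 with *B. bifidum*, and −0.12 and −0.30 with *L. acidophilus*. All 8 Asah1 ratios were below 0, and those of *B. clausii* on slide 2 were the lowest. Smpd1, acid sphingomyelinase, had −0.64 and −0.54 on slide 2 and −0.09 on slide 1 with *B. clausii*, and did not pass with *B. bifidum* (−0.09, −0.11 and −0.22). Gm2a, the activator that lifts GM2 ganglioside to hexosaminidase, rose with *B. bifidum* on slide 2 at 0.47 and 0.39, with 0.20 on slide 1, and did not pass with *B. clausii* (−0.14, −0.06 and 0.10). Galc, which hydrolyses galactosylceramide, and Ppt1, which removes palmitate from proteins, passed in neither strain, with all their ratios between −0.34 and 0.11.

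Of the peptidases and amidases, 2 of 3 fell with *B. clausii* on slide 2. Tpp1, the tripeptidyl peptidase, had −1.10 and −1.16 there (−1.13 ± 0.084 SE, adjusted p = 3.12e-05) and 0.15 on slide 1. It had −0.63 and −0.51 on slide 2 and 0.25 on slide 1 with *B. bifidum*, and 0.23 and 0.15 with *L. acidophilus*. As with the brighter Neu1 probe, the slides did not overlap. Aga, which cleaves the bond between asparagine and N-linked sugars, had −0.66, −0.52 and −0.30 with *B. clausii*, −0.36, −0.39 and −0.04 with *B. bifidum*, and −0.23 and −0.16 with *L. acidophilus*. Lgmn, the asparaginyl endopeptidase legumain that matures cathepsins, had −0.03, −0.02 and 0.06 with *B. clausii*, which did not pass, and 0.24, 0.27 and −0.20 with *B. bifidum*.

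Of 9 measured membrane proteins, 6 fell and none rose with *B. clausii* on slide 2. Laptm5, a transmembrane protein of lysosomes in blood cells, fell with both strains, at −0.86 and −0.93 with *B. clausii* and −1.003 and −0.99 with *B. bifidum* on slide 2. On slide 1 it had 0.02 with *B. clausii*, 0.12 with *B. bifidum* and 0.04 and −0.0019 with *L. acidophilus*. Mcoln1, the calcium channel TRPML1, had −0.75, −0.66 and −0.29 with *B. clausii*, −0.15, −0.03 and −0.49 with *B. bifidum* and −0.38 and −0.47 with *L. acidophilus*. All 8 ratios were below 0. Over both slides its *L. acidophilus* ratio had an unadjusted p of 0.0156 (adjusted p = 0.795 in limma). Mcoln1 was the one member under 0.05 with that strain in that fit. With the slide as a term, 14 members had an unadjusted p under 0.05 with *L. acidophilus*, against 2721 of 15203 genes. Lamp2, a coat protein needed for fusion with autophagosomes, had −0.69, −0.70 and −0.31 with *B. clausii*, −0.43, −0.26 and −0.64 with *B. bifidum*, and −0.23 and −0.32 with *L. acidophilus*. Lamp1, the other major coat protein, had −0.37 and −0.40 on slide 2 and 0.10 on slide 1 with *B. clausii*, and 0.09 and 0.23 on slide 2 with *B. bifidum*, where its slide 1 value was missing. Scarb2, the receptor that carries beta-glucocerebrosidase to lysosomes, fell with both strains on slide 2, by 0.64 with *B. clausii* and by 0.23 with *B. bifidum*. On slide 1 it had 0.0066 and −0.23. Ctns, the cystine exporter, had −0.44, −0.48 and 0.10 with *B. clausii* and 0.08, 0.04 and 0.22 with *B. bifidum*. Cd63 and Laptm4a, both sorted to late endosomes, passed with *B. bifidum* alone on slide 2, where Cd63 rose by 0.21 (−0.78 with median centring) and Laptm4a by 0.23. On the *B. bifidum* array of slide 1 Cd63 had 0.06 and Laptm4a −0.07. Cln3, whose human counterpart is mutated in juvenile Batten disease, had ratios between −0.13 and 0.14 on all arrays. Its promoter window is the one with the longest form of the motif.

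Progranulin (Grn), a secreted growth factor that is also cut into granulins in the lysosome, gave the largest difference between slides. Its brighter probe had 0.91 and 0.91 with *B. clausii* and 1.17 and 1.36 with *B. bifidum* on slide 2, against −1.88 with *B. clausii*, −2.32 with *B. bifidum* and −1.49 and −1.57 with *L. acidophilus* on slide 1. The ratio differed by 3.24 ± 0.18 (SE, adjusted p = 0.00138) between slide 2 and slide 1. No Grn spot was saturated. The other Grn probe had −0.28, −0.32 and −0.28 with *B. clausii*, 0.53, 0.58 and −0.43 with *B. bifidum* and −0.19 and −0.30 with *L. acidophilus*. The probes share the direction with *B. bifidum* on slide 2 and on every slide 1 array, and oppose each other with *B. clausii* on slide 2.

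The roles were also set side by side by their medians. On *B. clausii* replicates 1 and 2 the glycosidases had medians of −0.44 and −0.39, the sulfatases −0.36 and −0.48, the lipid group −0.39 and −0.44, the peptidase group −0.66 and −0.52 and the membrane proteins −0.44 and −0.48. On replicate 3 they lay between −0.13 and 0.07. With *B. bifidum* on slide 2 only the peptidase group reached −0.36 and −0.39, and the membrane proteins had 0.05 and 0.04.

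**Figure D2:**
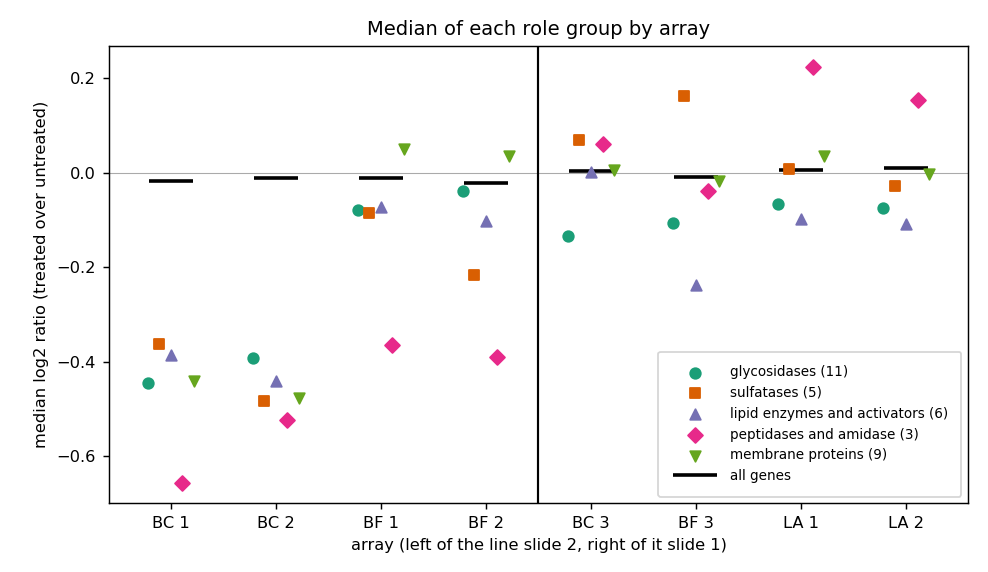
Median log2 ratio of each role group (symbols, number of genes in brackets) and of all genes (black bars) on each array, slide 2 left of the line and slide 1 right of it (BC, *B. clausii*; BF, *B. bifidum*; LA, *L. acidophilus*). On BC 1 and BC 2 all 5 group medians lie between −0.66 and −0.36, while the all-gene bars stay between −0.02 and 0.01.

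*B. clausii* was set against *B. bifidum* because a dye effect common to all arrays cancels between strains. Over both slides 0 of 35 members passed, and the median difference was −0.18. For all genes it was 0.01. With median centring the members had 0.06 and all genes 0.13. The sign of the members' median thus turned with the normalization, while that median stayed below the one of all genes. On slide 2, 21 members were lower with *B. clausii* and 0 were higher, against 11.3% of all genes lower and 11.2% higher, and 32 of 35 differences were below 0. The members' median difference there was −0.37, against 0.02 for all genes. Psap differed most, by −1.86 ± 0.098 (SE, adjusted p = 2.16e-05), followed by Naglu (−1.11 ± 0.11, adjusted p = 0.000276), Neu1 (−0.91 ± 0.10), Hexa (−0.75 ± 0.10), Gla (−0.75 ± 0.10), Sgsh (−0.65 ± 0.098) and Glb1 (−0.65 ± 0.10). By role, the lower members were 7 of 11 glycosidases, 2 of 5 sulfatases, 4 of 6 lipid enzymes and activators, 1 of 3 peptidases and amidases and 7 of 9 membrane proteins. The membrane proteins that differed were Mcoln1, Lamp1, Ctns, Scarb2, Laptm4a, Lamp2 and Cd63. On slide 1, where each strain had 1 array, 0 members passed and the median difference was −0.02. From the scanner's processed signals 0 genes passed on slide 2, with a median difference of −0.41 over the members. With median centring 0 members passed on slide 2, with a median difference of −0.22 against 0.06 for all genes.

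**Figure D3:**
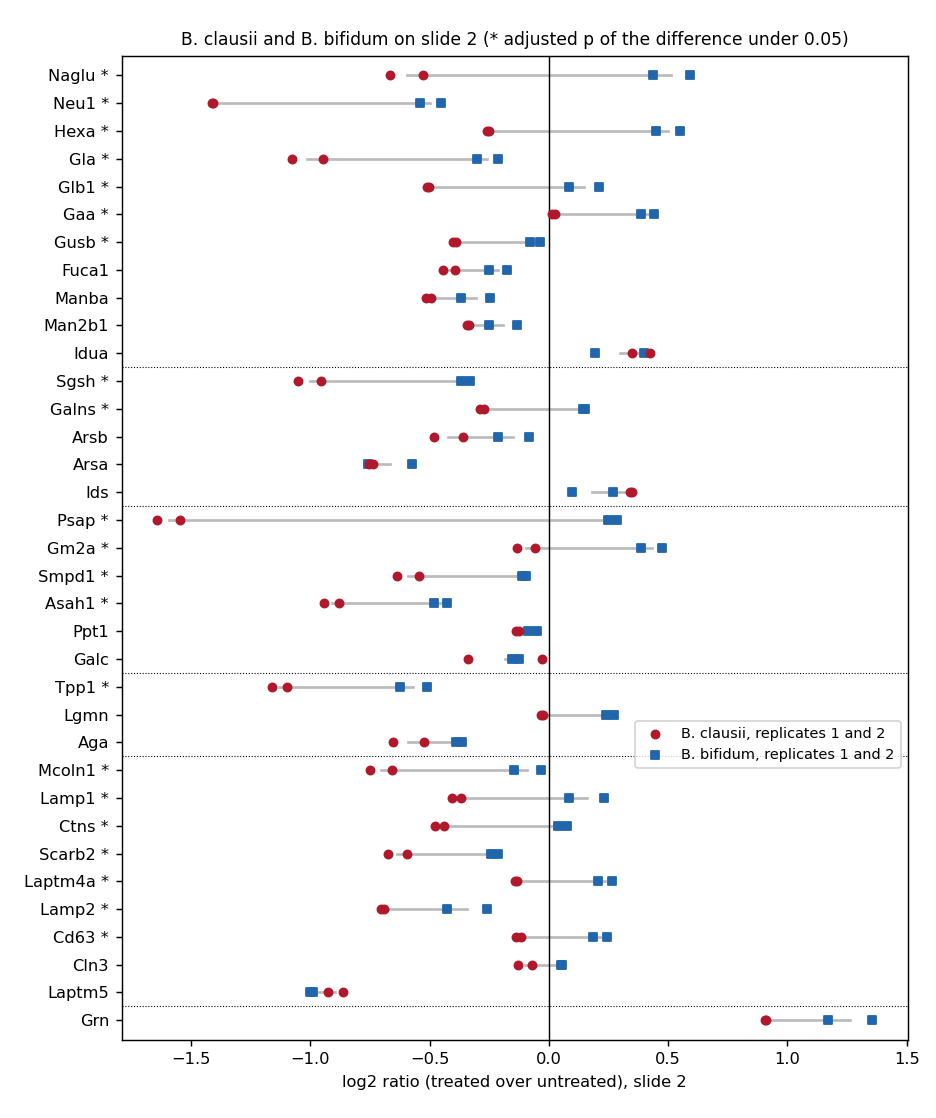
Log2 ratio of treated over untreated on slide 2 for each member (rows, grouped by role, with dotted lines between roles), with red circles for *B. clausii* and blue squares for *B. bifidum*, and a grey line joining their means. A star marks the 21 members whose difference passed, all lower with *B. clausii*. Laptm5, Arsa and Idua nearly coincide between strains.

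Some members fell with both strains on slide 2. Laptm5 differed by 0.10 ± 0.097 (SE, adjusted p = 0.523) and Arsa by −0.08 ± 0.11 (adjusted p = 0.668) between the strains on slide 2, and Man2b1, Manba, Fuca1 and Aga fell with both without a difference that passed. A p above the threshold does not show that the strains acted alike. Over all 8 arrays, 9 of the 32 members with all values were below 0 on every array (28.1%), against 6.67% of all genes, and 1 was above 0 on every array (3.12%, against 5.31%). The 9 were Aga, Asah1, Gla, Gusb, Lamp2, Man2b1, Manba, Mcoln1 and Smpd1, and the 1 was Ids. These signs are those of the brightest probe of each gene. The second Lamp2 and Manba probes and the dimmer Ids probes did not keep the sign on all arrays. The second Manba probe had 0.09 with *B. clausii* and 0.16 with *B. bifidum* on slide 1. Since Cy5 was always the treated channel, a dye effect of the probe and a treatment effect cannot be told apart for a constant sign.

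The slide itself was tested as a term next to the strains. It passed for 10 members, with 2 higher on slide 2 (Grn and Gaa) and 8 lower (Aga, Arsa, Arsb, Fuca1, Laptm5, Neu1, Sgsh and Tpp1), against 7.07% of all genes higher and 12% lower. Apart from Grn, the largest were Neu1 (−1.23 ± 0.17 SE, adjusted p = 0.00525), Laptm5 (−1.03 ± 0.089, adjusted p = 0.00218) and Tpp1 (−1.01 ± 0.12, adjusted p = 0.00418). The second Neu1 probe went the other way with *B. bifidum*, at 0.75 and 0.62 on slide 2 against −0.36 on slide 1. The term is estimated from the strains that lie on both slides and assumes that the slide shifts each strain alike, which the values of Psap do not follow. Its *B. clausii* ratios were −1.64 and −1.55 on slide 2 against −0.05 on slide 1, while its *B. bifidum* ratios were 0.25 and 0.29 on slide 2 against −0.42 on slide 1. With median centring in place of loess, 0 members passed for the slide.

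The untreated channel alone, in cells with no bacteria added, also differed between slides for several members. On the log2 brightness scale, in which levels of different probes are not compared, the slides did not overlap for 5 members higher on slide 2 and 8 lower, of 35 (14.3% and 22.9%), against 22.1% and 14.5% of all genes. Laptm5 averaged 12.6 in untreated cells on slide 2 against 10.6 on slide 1, a difference of 1.99. Idua was higher by 1.37, Sgsh by 1.07, Ctns by 0.70 and Grn by 0.67 on slide 2. Without *B. clausii* replicate 3, 10 members were higher on slide 2 and 13 lower (28.6% and 37.1%), against 32% and 26.5% of all genes, and the Grn difference was 0.20. Tpp1 averaged 12.7 in untreated cells on slide 2 against 13.7 on slide 1, and Neu1 13.7 against 14.6. Laptm5 and Sgsh, with higher untreated brightness, and Tpp1 and Neu1, with lower, all had lower treated over untreated ratios on slide 2, so members with either direction in untreated cells are among those with a lower ratio. The differences without *B. clausii* replicate 3 were 1.99 for Laptm5, 0.89 for Sgsh, −0.79 for Tpp1 and −0.61 for Neu1. All slide 1 arrays were scanned with an extended signal range and all slide 2 arrays without it. Slide 2 arrays had 75 to 106 saturated probes each, and slide 1 arrays 0. Scanning, cells and handling cannot be told apart as sources of a slide difference.

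**Figure D4:**
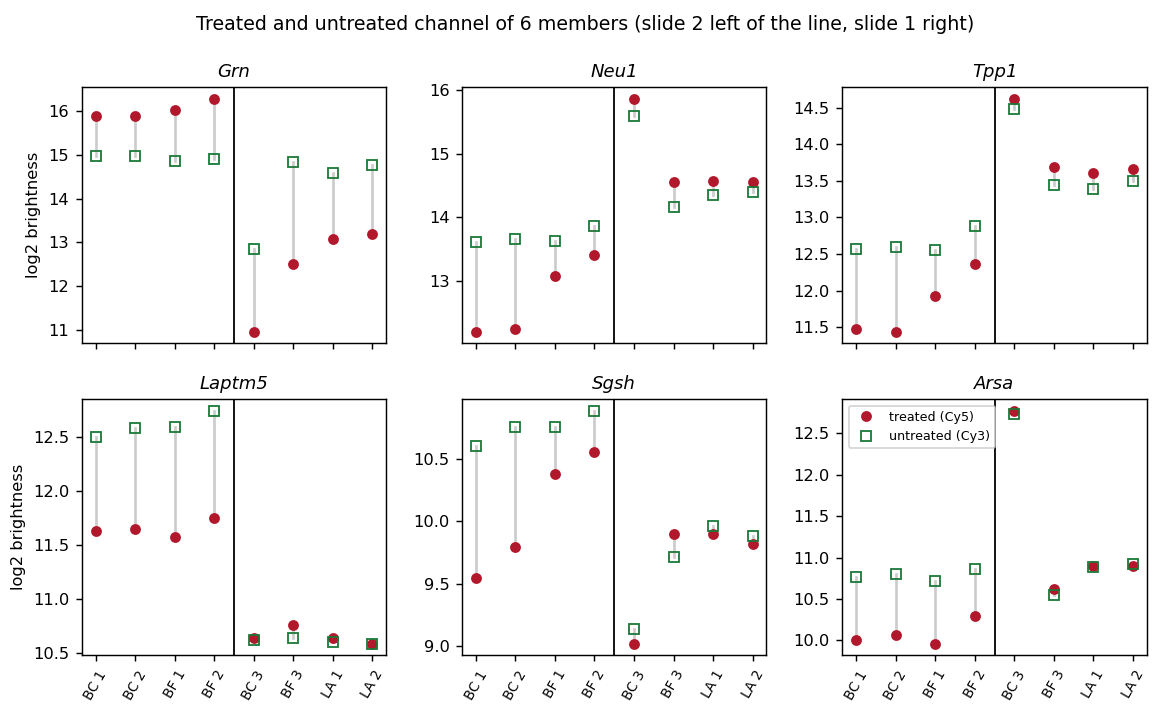
Log2 brightness of the treated channel (red circles) and the untreated channel (open green squares) of 6 members on each array (BC, *B. clausii*; BF, *B. bifidum*; LA, *L. acidophilus*), slide 2 left of the line and slide 1 right of it, with a grey line for the ratio. For Laptm5 the untreated squares lie near 12.6 on slide 2 and 10.6 on slide 1. For Grn the treated circles change sides of the untreated squares between slides.

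Several members were measured by more than 1 probe, and the brightest was used. Of 17 such members, the probes lay on opposite sides of 0 for 5 with *B. clausii* on slide 2 (Lamp2, Grn, Sgsh, Ids and Gm2a) and for 7 with *B. bifidum* (Lamp2, Neu1, Arsb, Glb1, Sgsh, Fuca1 and Ids). The second Neu1 probe had −0.30 and −0.42 with *B. clausii* and 0.75 and 0.62 with *B. bifidum* on slide 2, so it shared the fall with *B. clausii* at a smaller size and opposed the brighter probe with *B. bifidum*. On slide 1 it had −0.05 with *B. clausii*, −0.36 with *B. bifidum* and −0.195 and −0.145 with *L. acidophilus*. It was thus below 0 on every slide 1 array, where the brighter probe was above 0. The 2 Lamp2 probes belong to different RefSeq transcripts. The one used, for NM_001017959, was below 0 on all 8 arrays, and the one for NM_010685 had 0.14, 0.11 and 0.06 with *B. clausii*, 0.44, 0.42 and −0.32 with *B. bifidum* and 0.05 and 0.04 with *L. acidophilus*. Both Psap probes were low with *B. clausii* on slide 2, the second at −1.11 and −1.11, and it had 0.07 and −0.01 with *B. bifidum*. Both Tpp1, both Scarb2 and both Manba probes lay below 0 for *B. clausii* on slide 2. The second Laptm5 probe had −0.11 and −0.17 with *B. clausii* and −0.50 and −0.47 with *B. bifidum*, smaller than the −0.86 to −1.003 of the probe used. The second Ppt1 probe had −0.68 and −0.49 with *B. clausii* and −0.56 and −0.55 with *B. bifidum* on slide 2, where the brighter one stayed near 0. The second Sgsh probe was dim, well above background on 6 arrays, with ratios between −0.54 and 0.21. With the mean of a gene's probes, the median of the members was −0.40 with *B. clausii* on slide 2, against −0.02 for all genes.

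**Figure D5:**
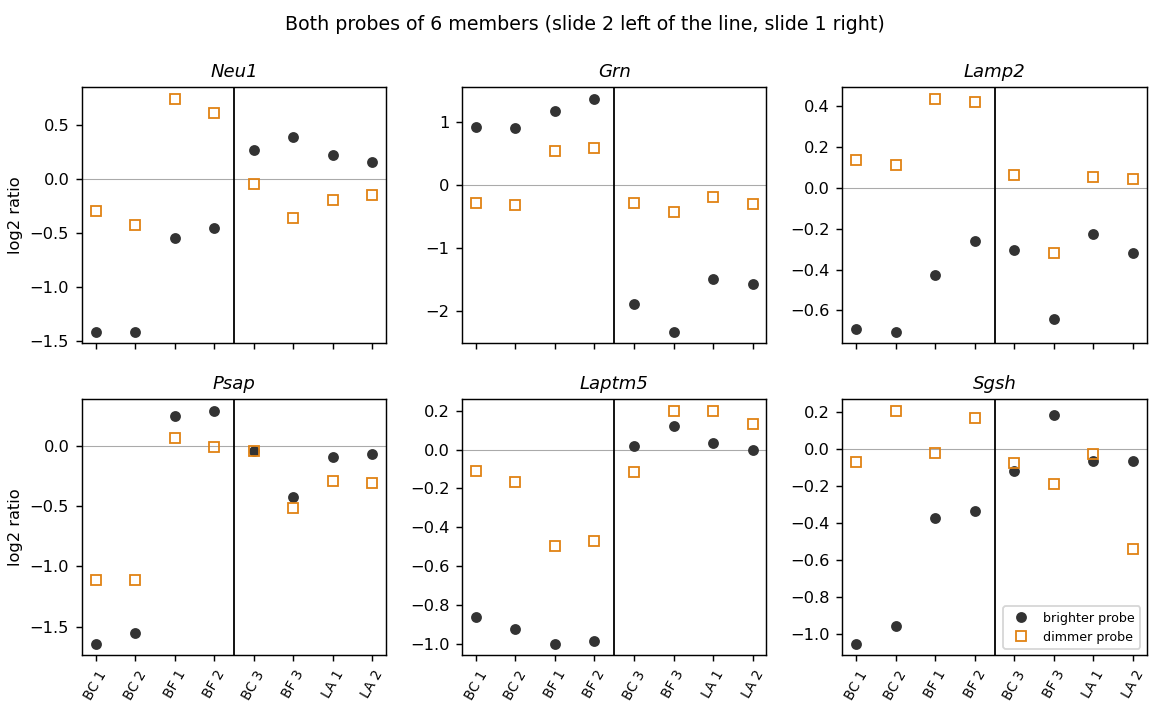
Log2 ratio of treated over untreated for the brighter probe (filled circles) and the dimmer probe (open squares) of 6 members on each array (BC, *B. clausii*; BF, *B. bifidum*; LA, *L. acidophilus*), slide 2 left of the line and slide 1 right of it. The Psap probes run together, with −1.64 to −1.11 on BC 1 and BC 2, while the Lamp2, Grn and Neu1 probes part on several arrays.

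With *L. acidophilus*, whose arrays all lay on slide 1, no member passed over both slides, with the slide as a term or on slide 1 alone. Apart from Grn, the ratios lay between −0.47 (Mcoln1) and 0.30 (Arsb), and 21 of 33 and 23 of 35 members were below 0 on the 2 arrays. Of all genes, 47.3% and 47.9% were below 0 there. By the brightest probe, Arsb, Neu1, Lgmn, Tpp1 and Ids were the members above 0.15 on both arrays. The second probes had 0.07 and 0.13 for Arsb, −0.195 and −0.145 for Neu1, and 0.05 and −0.05 for Tpp1. The dimmer Ids probes lay between −0.30 and 0.03, and Lgmn had 1 probe.

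The promoter motif was set beside the ratios as a description. Of the 32 measured members with a window, the 10 with CACGTG had a median of −0.55 with *B. clausii* on slide 2, and 7 fell and 0 rose. The 22 without it had a median of −0.41, and 14 fell and 3 rose. With *B. bifidum* on slide 2 the order was the opposite, with medians of 0.10 with the motif and −0.09 without it. Between *B. clausii* and *B. bifidum* the medians of the differences were −0.58 with the motif and −0.35 without it. Among the printed windows, Gla, Mcoln1 and Lamp1 belong to genes that fell with *B. clausii* on slide 2 and Cln3 to one that did not pass.

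Other lysosomal genes outside the 36 gave the following counts, to be read against 24.4% of all genes that fell and 19.1% that rose with *B. clausii* on slide 2, and 24.7% and 16.7% with *B. bifidum*. Of 17 further hydrolases and lipid-handling genes, 12 fell and 0 rose with *B. clausii* on slide 2, with a median of −0.55, and 4 fell and 3 rose with *B. bifidum*. Lipa, which hydrolyses cholesteryl esters, had −1.54 and −1.62 with *B. clausii* on slide 2 and −0.01 on slide 1. Npc2, which hands cholesterol to the membrane protein NPC1, had −1.07 and −1.12 on slide 2 and no value on slide 1, and Npc1 had −0.68 and −0.94 on slide 2 and 0.01 on slide 1. Acp5, the tartrate-resistant acid phosphatase, had −0.59 and −0.67 with *B. clausii* and 0.57 and 0.49 with *B. bifidum* on slide 2. On slide 1 it had −0.04 and −0.25. Of 14 genes for mannose phosphate tagging and sorting, 6 fell and 1 rose with *B. clausii* on slide 2. They included Sumf1, which activates all sulfatases (−0.85 and −0.92, against 0.32 on slide 1), and the sorting receptor Sort1 (−0.79 and −0.70, against 0.01 on slide 1). The one that rose was the mannose phosphate receptor gene Igf2r (0.45 and 0.39, and 0.34 on slide 1). The 14 other lysosomal membrane genes had a median of −0.18 with *B. clausii* on slide 2. Among them the metal transporter Slc11a1 had −0.79 and −0.69 there and −0.04 on slide 1.

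Of 15 genes of the TFEB family and its control, 7 fell and 0 rose with *B. clausii* on slide 2, against 24.4% and 19.1% of all genes. With *B. bifidum* 5 fell and 6 rose, against 24.7% and 16.7% of all genes. Between the strains the median difference on slide 2 was −0.17, against −0.37 for the members and 0.02 for all genes. Over both slides, limma called 0 of the 17 further hydrolases higher and 4 lower for slide 2 minus slide 1. The counts were 1 and 5 of the 14 sorting genes, 2 and 3 of the 14 membrane genes and 1 and 2 of these 15 genes. Of all genes, 7.07% were higher and 12% lower. Lipa (−0.94), Sort1 (−0.85), Sumf1 (−0.83) and Npc1 (−0.49) were among the lower ones. Mitf, one of the factors that bind the motif, was the one gene of these lists called over both slides with a strain or between strains. It had −1.08, −0.99 and −0.78 on the *B. bifidum* arrays (−0.95 ± 0.084 SE, n = 3, adjusted p = 0.0126 in limma). Its ratio was below 0 in each of 30 other settings, between −1.63 and −0.78, but it passed in 17 and not in 13. It missed the threshold over both slides with the processed signals (adjusted p = 0.185 in limma), the deposited ratios (0.165), median centring (0.0849), a robust trend (0.277), only the strains compared (0.153) and averaged arrays (1), on slide 1 (0.0796), and on slide 2 with the processed signals (0.0556) or the deposited ratios (0.0614). It also missed without either *L. acidophilus* array (0.0834) and without *B. bifidum* replicate 1 (0.206) or 2 (0.216). Mitf had −0.25, −0.23 and −0.02 with *B. clausii* and −0.15 and −0.13 with *L. acidophilus*. Flcn, a partner of the Rag GTPases, had −0.41 and −0.40 with *B. clausii* against 0.78 and 0.60 with *B. bifidum* on slide 2. On slide 1 Flcn had 0.16 with *B. clausii* and −0.25 with *B. bifidum*. Rragc, a Rag GTPase, had −0.83 and −0.78 against 0.26 and 0.33 on slide 2, and −0.08 against −0.24 on slide 1. Tfe3 rose with *B. bifidum* on slide 2 at 0.41 and 0.53, with −0.27 on slide 1, and had −0.02, −0.06 and 0.04 with *B. clausii*.

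Of 7 measured macrophage marker genes, 5 fell and 0 rose with *B. clausii* on slide 2, with a median of −0.53, against 24.4% and 19.1% of all genes. With *B. bifidum* 2 fell and 1 rose, with a median of 0.02, against 24.7% and 16.7% of all genes. Their part in the members' ratios was not tested, and in such bulk RNA fewer cells of a type and less RNA per cell cannot be told apart.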

How the data were processed

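The 8 arrays were analysed, 2 or 3 per strain. Per the file headers, the deposited scanner files come from Agilent Feature Extraction 10.7.3.1 (10.5.1.1 per the submitters' processing notes) and hold median spot and background brightness as linear intensity, with the software's log10 ratio (Cy5 over Cy3). Values in the authors' deposited table match that log10 ratio within 0.005, which settles both scale and direction. The files name the mouse build mm9, and the RefSeq table of GRCm38.p6 used for gene names named 29169 of 43379 probe features.

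Brightness was background-corrected by normexp (offset 50) on every spot, and loess within each array then normalized the log2 ratios, with control spots at weight 0, in limma 3.58.1 under R 4.3.3. Outlier spots were removed and the spots of a probe averaged. Probes were kept when 2 or more arrays had them well above background in either channel (28598 of 41174), and the brightest stood for its gene. The median signal was used since the columns used here hold no mean signal.

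Limma (lmFit, eBayes) was fitted with a mean per strain, and with a slide term for the slide comparison, adjusted by Benjamini-Hochberg over 15203 genes at a threshold of 0.05. The planned fit counted 8 arrays. Because *B. clausii* replicates 1 and 2 differed by no more than repeated spots, 7 samples were counted and the planned fit became an alternative. Fits were tested on simulated data. The members, gene lists and tests were chosen with earlier results of these data known. The rule was to give values per array for members that passed in a comparison, whose probes disagreed in sign, or that were lowest or highest in their role, and other pathway genes as counts with values for those that passed. By that rule Mitf is named. Other pathway genes that passed over both slides for the slide alone are given as counts, without all their values. Lipa, Npc1, Npc2, Acp5, Sumf1, Sort1, Igf2r, Slc11a1, Flcn, Rragc and Tfe3, and the further members with values, were chosen after their values were seen. Alternatives covered background correction, the processed signals, the deposited ratios, normalization, filters, probes, variance trend, replicate block, slide, strains fitted alone, averaging and each array left out.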

Additional observations from a re-analysis of the deposited data

Results flagged for a closer look

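For 10 members the ratio of treated over untreated cells, from the brightest probe of each, differed between slides by limma's slide term. It is given as slide 2 minus slide 1. Grn had 3.24 and Gaa 0.54, while Neu1 had −1.23, Laptm5 −1.03, Tpp1 −1.01, Arsa −0.76, Sgsh −0.68, Arsb −0.44, Fuca1 −0.34 and Aga −0.32. Of all genes, 7.07% were higher and 12% lower by this test.

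For 3 members every *B. clausii* array lay below 0 and every *B. bifidum* array above it. Such a split, in either direction, held for 2.91% of all genes. The difference between the strains over both slides was −0.51 for Hexa, −0.25 for Cd63 and −0.14 for Cln3. By limma over both slides none of the 3 passed (adjusted p = 0.876 for Hexa), and on slide 2 alone Hexa and Cd63 passed.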

How the results depend on the processing

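Over both slides, the counts of 0 members with *B. clausii*, *B. bifidum*, *L. acidophilus* and between *B. clausii* and *B. bifidum* stayed at 0 with no background correction, the processed signals, the deposited ratios, median centring, scale normalization, either probe filter, averaged probes per gene, each probe on its own, a robust intensity trend, only the strains compared, and arrays of a strain and slide averaged. They moved with the treatment of slide and replicates. With *B. clausii* 9 members passed with the slide as a term, against 4.97% of all genes lower and 2.8% higher. The counts on each slide alone are given above. Leaving out any array but *B. clausii* replicate 3, the array with few probes above background, gave 0. Without that array the strain was 1 sample, and its median over the members was −0.42, against −0.01 for all genes. With *B. bifidum* 6 members passed with the slide as a term, against 7.49% of all genes lower and 2.82% higher. Without *B. bifidum* replicate 3, 2 fell and 4 rose, against 8.07% and 3.18% of all genes. Leaving out any other array gave 0 to 1. Between the strains 21 passed on slide 2 alone, and 0 to 2 with an array left out (2 without *B. clausii* replicate 3). With *L. acidophilus* leaving out an array gave 0. Counting the 8 arrays separately gave 7 with *B. clausii*, with the slide as a term 22, 8, 2 and 1 (*B. clausii*, *B. bifidum*, *L. acidophilus* and between strains), and on slide 2 alone 29, 24 and 23 (*B. clausii*, *B. bifidum* and between strains).

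On slide 2 the processed signals and the deposited ratios gave 0 members for *B. clausii*, *B. bifidum* and their difference, and 0 of all genes. Median centring gave 10 with *B. clausii*, 19 with *B. bifidum*, all lower, and 0 between strains, with medians of all genes of −0.30 and −0.42. The mean of a gene's probes gave 27, 19 and 22. These slide 2 settings, the separate counting of 8 arrays, each probe on its own and the untreated levels without *B. clausii* replicate 3 were chosen after seeing the data.

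For slide 2 minus slide 1, the count of 10 became 6 with the processed signals (5.12% of all genes lower and 4.39% higher). It was 0 with median centring and 6 with scale normalization (4.2% and 1.96%). Without *B. bifidum* replicate 3 it was 18 (17.3% and 11.2%), and without replicate 1 or 2 it was 6 (4.63% and 2.1%, and 6.19% and 3.12%). The median of the members, −0.15, became −0.16 with arrays averaged and 0.07 without *B. clausii* replicate 3, which left that strain 1 sample.

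Some members changed sign. Grn, near 0 over both slides with *B. bifidum*, had −0.47 with the slide as a term, −2.32 on slide 1 and −0.46 with the slide as a term over 8 arrays, and with *B. clausii* 0.91 on slide 2 by either count of arrays and 0.30 there with the mean of its probes. For slide 2 minus slide 1, leaving out an array gave Psap −1.55 to 0.69, Mcoln1 −0.41 to 0.40 and Galns −0.35 to 0.52, the ends being those without replicate 3 of *B. clausii* or of *B. bifidum*. With 8 arrays, Laptm5 had −0.49 with *L. acidophilus* and the slide as a term, and on slide 2 Laptm4a had −0.14 with *B. clausii* and Galns 0.15 with *B. bifidum*. With median centring on slide 2, *B. bifidum* gave Lamp1 −0.81 and Cd63 −0.78. The cause of these changes was not tested.

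Replicate numbers did not pair the samples: deviations of same-numbered arrays correlated at 0.30 to 0.46 between *B. clausii* and *B. bifidum*, where the number follows the slide, and at −0.09 to −0.06 with *L. acidophilus*. The replicate block was fitted with all 8 arrays counted separately, so *B. clausii* replicates 1 and 2 entered as 2 samples. With it, 20 members fell and 2 rose with *B. clausii*, against 16.6% and 11.9% of all genes. With *B. bifidum* 6 fell and 1 rose (10.9% and 4.05%). With *L. acidophilus* 1 fell and 2 rose (1.4% and 1.9%), and 0 passed between strains (0.00658% and 0.0132%). The block could not be fitted beside the slide.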
